A study of Mus musculus with 36 samples.

Results

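The genes described here are 43 members of the homologous recombination and Fanconi anemia pathways, taken by symbol from a fixed list among the 46078 genes counted in each library. RNA was sequenced from RM-1-BM cells, a mouse prostate cancer line, and from RAW264.7 cells, a mouse macrophage line. The cancer cells had been transduced with an empty vector or with the F133V mutant of SPOP, the substrate-binding adaptor of a ubiquitin ligase. Each kind of cancer cell was grown alone or in a transwell coculture with the macrophages, with DMSO vehicle or with olaparib, an inhibitor of the repair enzyme PARP. The cancer cells thus formed 8 groups, from vector and F133V cells kept alone or cocultured, in DMSO or olaparib. The macrophages gave 4 groups, from cocultures with vector or F133V partners in DMSO or olaparib, and no group of macrophages alone was analysed. Each of the 12 groups held 3 libraries, 36 in all. Both lines are single established lines, the mutant was present by transduction rather than at the native gene, and the labels state no dose or duration of olaparib.

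Homologous recombination repairs a broken chromosome by copying the intact sister DNA molecule. Kinases detect the break, nucleases resect its ends to single strands, BRCA1 and BRCA2 complexes load a recombinase onto them, and helicases and nucleases later separate the joined molecules. The Fanconi proteins act at crosslinks between DNA strands and feed the cut ends into the same machinery. Many of these genes are transcribed mainly in cells that are copying their DNA, so their RNA rises and falls with the share of dividing cells, and cells that lack the pathway are killed by PARP inhibitors. The members were grouped by role into 6 BRCA and mediator genes, 8 strand exchange genes, 6 resection genes, 4 checkpoint kinase genes, 6 genes of joint-molecule resolution, 10 Fanconi genes and 3 genes that steer the choice of repair route. Because dividing cells make more of many of these RNAs, each comparison was read beside 41 genes of DNA replication (S phase) and 37 genes of mitosis.

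The assigned counts ranged from 32063028 to 43062440 per cancer library and from 30292309 to 37340425 per macrophage library. All 43 members passed the filter on low counts in both cell types. Spop, which is counted whether native or mutant, lay between 110 and 126 CPM (counts scaled to the size of the library) in vector libraries and between 93.7 and 115 CPM in F133V libraries, so its total does not check the mutant label. The 14 macrophage markers summed to 13300 to 15500 CPM in macrophage libraries and to 11.4 to 23.7 CPM in cancer libraries, highest in replicates 1 and 2 of vector cells alone in DMSO. Of the 11 epithelial and prostate markers, Epcam did not exceed 0.482 CPM and Cdh1 did not exceed 0.118 CPM in the cancer libraries. The sum of those 11 markers, most of it keratin 18, was 434 to 465 CPM in cocultured F133V cells in DMSO and 82.6 to 193 CPM in the other cancer libraries. That same group had normalisation factors of 0.849 to 0.866, against 0.98 to 1.06 in the other cancer groups. Some results are given below also under other scalings. Others are given without replicates 1 and 2 of vector cells alone in DMSO. That fit leaves a single library in this group, so only effect sizes are given for it. How far the difference in epithelial and prostate markers bears on the results was not tested. In cell populations of this kind, fewer expressing cells and less RNA per cell cannot be told apart.

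The mean level of the 43 members, as log2 CPM, was 3.48 in all 3 libraries of vector cells alone in DMSO and 3.66 to 3.67 with olaparib. It was 3.05 to 3.11 in F133V cells alone in DMSO and 3.1 to 3.11 with olaparib. In coculture, vector cells had 3.41 to 3.47 in DMSO and 3.45 to 3.5 in olaparib, whereas F133V cells had 2.8 to 2.87 in DMSO and 3.12 to 3.16 in olaparib. Every F133V library was thus below every vector library, and cocultured F133V cells in DMSO were the lowest group. Macrophages lay above all cancer libraries, at 4.01 to 4.06 in DMSO and 3.75 to 3.84 in olaparib. Macrophage and cancer libraries were filtered and scaled separately, so their levels here can be compared only roughly. Per kilobase of exon, the median member stood between 1.13 and 2.4 RPKM in the 12 groups. In vector cells alone in DMSO the range ran from Rad54b, a motor protein that assists strand exchange, at 0.0722 RPKM to Rad50, a structural subunit of the break-binding MRE11 complex, at 13.2 RPKM.

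**Figure D1:**
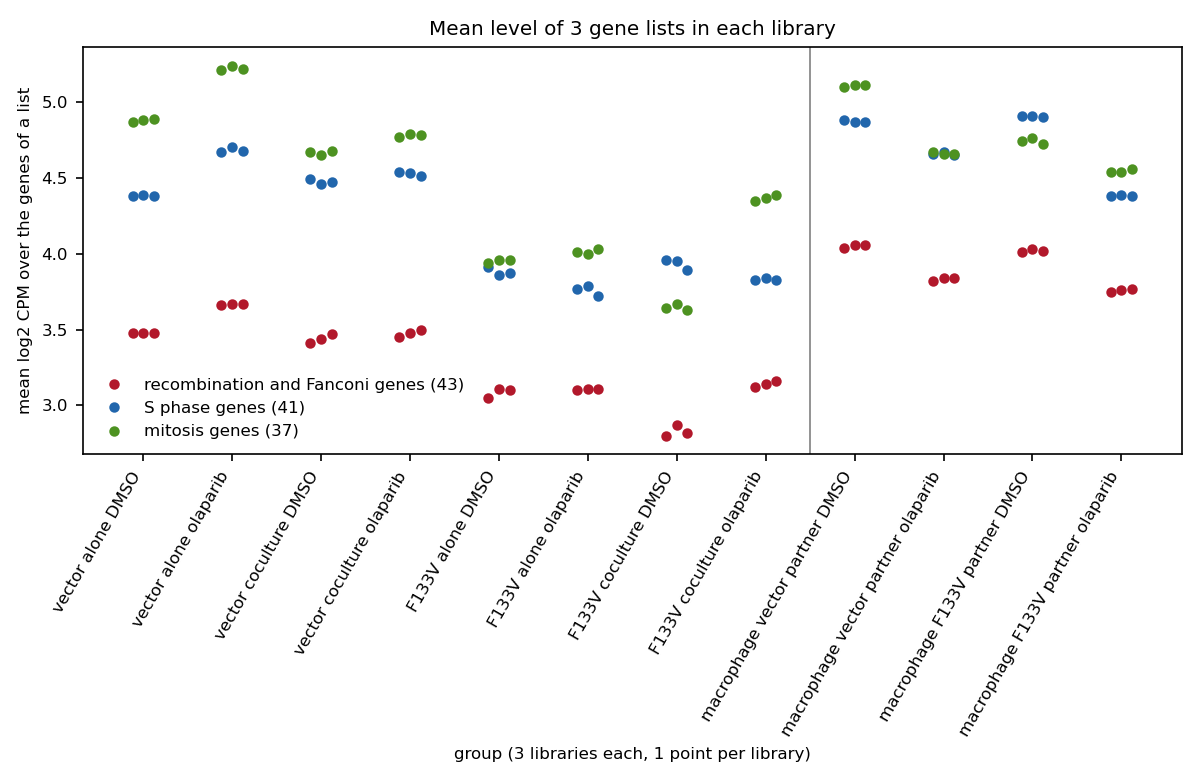
Mean log2 CPM of the 43 members, of 41 S phase genes and of 37 mitosis genes, plotted for each of the 36 libraries by group; each point is 1 library. For the members, the 3 libraries of cocultured F133V cells in DMSO, at 2.8 to 2.87, lie below all other libraries. Cancer and macrophage libraries were scaled separately.

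Upstream sequences are shown for 4 members with different promoter motifs and different responses, because many cell cycle genes carry short motifs near their start sites. RefSeq promoters (GRCm38.p6, 250 bases before to 50 bases after the start) were matched for 33 of the 43 members and 27025 genes in all. Each line below gives the 250 bases upstream of the start, 5′ to 3′ on the gene's own strand, for Brca2 (chr5:150522371-150522620, plus strand), Bard1 (chr1:71102973-71103222, minus strand), Chek2 (chr5:110839733-110839982, plus strand) and Brca1 (chr11:101551956-101552205, minus strand). Capitals mark matches to an E2F motif (TTTCCCGC, TTTCGCGC, TTTGCCGC or TTTGGCGC), to the CHR motif (TTTGAA) or to a CCAAT box, on either strand.
Brca2: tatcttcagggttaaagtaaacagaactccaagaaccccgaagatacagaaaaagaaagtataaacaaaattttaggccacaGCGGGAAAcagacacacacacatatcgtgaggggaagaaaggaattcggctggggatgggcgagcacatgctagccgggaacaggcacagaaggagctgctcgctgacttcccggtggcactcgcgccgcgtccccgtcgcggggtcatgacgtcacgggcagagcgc
Bard1: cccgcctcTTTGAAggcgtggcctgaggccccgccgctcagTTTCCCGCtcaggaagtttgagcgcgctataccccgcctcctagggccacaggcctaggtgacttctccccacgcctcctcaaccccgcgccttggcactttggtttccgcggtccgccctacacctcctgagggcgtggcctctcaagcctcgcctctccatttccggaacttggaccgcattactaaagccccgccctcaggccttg
Chek2: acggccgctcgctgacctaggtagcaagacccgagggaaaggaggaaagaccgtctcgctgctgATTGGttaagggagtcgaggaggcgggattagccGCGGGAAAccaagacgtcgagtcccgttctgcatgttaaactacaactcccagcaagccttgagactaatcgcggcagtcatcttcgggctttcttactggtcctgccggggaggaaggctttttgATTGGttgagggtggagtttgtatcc
Brca1: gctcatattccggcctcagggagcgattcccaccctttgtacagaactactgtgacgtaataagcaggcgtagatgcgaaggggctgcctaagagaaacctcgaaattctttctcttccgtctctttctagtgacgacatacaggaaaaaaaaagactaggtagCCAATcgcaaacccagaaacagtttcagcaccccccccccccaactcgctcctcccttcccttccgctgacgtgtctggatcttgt
The Brca2 window holds 1 E2F match on the opposite strand, Bard1 holds a CHR and an E2F match, Chek2 holds an E2F match and 2 CCAAT boxes read on the opposite strand, and Brca1 holds 1 CCAAT box. Over the full window of 300 bases, an E2F spelling occurred in 5 of 33 members (15.2%: Bard1, Brca2, Chek2, Fancg and Rad51c), in 45.7% of S phase genes and in 2.6% of all promoters. The CHR motif occurred in 4 of 33 members (12.1%), in 76.7% of mitosis genes and in 20.2% of all promoters. A CCAAT box occurred in 18 of 33 members (54.5%) and in 41.1% of all promoters. These shares describe letters in the window and say nothing of factor binding; the difference between members and other genes was not tested.

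The first question was how the F133V mutant changed these genes. In cells alone in DMSO, 29 members fell and 5 rose with F133V by the quasi-likelihood test of edgeR, adjusted over all genes tested by the Benjamini-Hochberg method. Among all 15962 genes tested, 34% were lower and 33.7% higher. The members' median log2 fold change was −0.35. The cell division genes fell further, with a median of −0.54 for S phase genes and −1 for mitosis genes; 33 of 41 and 36 of 37 of them were lower. Mki67, the usual proliferation marker, was 55.5 CPM in F133V cells and 183 CPM in vector cells.

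Among the BRCA and mediator genes, 5 of 6 fell in cells alone. Brca1, a ubiquitin ligase that promotes resection and recruits the loading complex, read 18.2, 17.1 and 17.7 CPM in vector libraries and 8.11, 9.04 and 9.96 CPM in F133V libraries (log2 fold change −0.97 ± 0.06 SE, adjusted p = 3.2e-17). Its obligate partner Bard1 read 15.8, 15.9 and 15.3 CPM against 7.52, 7.47 and 7.12 CPM (−1.09 ± 0.07, adjusted p = 5.4e-17). For both genes all F133V libraries lay below all vector libraries, at about the same fold. The BRCA1-bound helicase Brip1 fell by 1.29 on the log2 scale, Brca2, which loads the recombinase, by 0.74 and its partner Palb2 by 0.33. Without replicates 1 and 2 of the vector cells, which held more macrophage transcripts, Palb2 was at −0.23. That fit left a single library in the vector group, and the call was not kept in it. Rad52, an annealing protein that is not essential for this route in mammals, was 13.8, 14.7 and 13.8 CPM in vector and 14.3, 14.9 and 13.6 CPM in F133V libraries, which overlapped.

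Of the 8 strand exchange genes, 5 fell and 1 rose. Rad54l, the motor protein that drives pairing with the intact DNA, read 6.72, 7.97 and 8.63 CPM in vector libraries and 2.06, 2.49 and 2.43 CPM in F133V libraries (−1.73 ± 0.11, adjusted p = 1.6e-17). It had the lowest log2 fold change of the 43 members. Rad51b, a recombinase paralog, gave −1.68 ± 0.31 at levels near 1 CPM and below. Rad54b moved the other way, from 0.354, 0.458 and 0.441 CPM to 0.835, 1.36 and 0.791 CPM (1.26 ± 0.27, adjusted p = 8.7e-05). The counts of both Rad54 genes are uncertain because their exons overlap another gene, over 15.4% of the exon length for Rad54l (Lrrc41) and 35.9% for Rad54b (Fsbp and Gm11832), and no source used here gives the strand setting of the counting. Such overlap touched 19 of the 43 members, and 9 of them over more than 10% of their exon length, among them Fanci (Polg), Fancl (Vrk2) and Trp53bp1 (Tubgcp4).

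The resection genes went both ways. Rbbp8, which starts resection with the MRE11 complex, rose from 27.4, 25.9 and 26.9 CPM to 34, 34.3 and 33.5 CPM (0.34 ± 0.04, adjusted p = 1.1e-08), whereas the long-range nuclease Exo1 fell by 0.82 and Dna2 by 0.66. All 4 kinase genes were lower, by 0.11 (Atm) to 0.3 (Chek2) on the log2 scale. Atm, the kinase that senses double-strand breaks, had log2 fold change −0.09 without the 2 vector libraries with more macrophage transcripts. That fit left a single library in the vector group, and the call was not kept in it. Chek1, the replication checkpoint kinase, had −0.12 (adjusted p = 0.28) without replicate 3 of the vector cells. After removal of a length and GC trend Chek1 had −0.15 (adjusted p = 0.11) and Atr −0.04 (adjusted p = 0.35). Blm, the helicase that dissolves joint molecules, fell by 1.11, and Slx4, the scaffold of the cutting nucleases, rose by 0.2.

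The Fanconi genes split. Fancd2 and Fanci encode the 2 subunits of the clamp that is locked onto damaged DNA, and their RNAs moved in opposite directions. Fancd2 read 14.1, 14.3 and 14.8 CPM in vector libraries and 18.5, 19 and 19 CPM in F133V libraries (0.38 ± 0.06, adjusted p = 3.3e-07). Fanci read 6.52, 5.93 and 6.66 CPM against 2.89, 3.26 and 2.75 CPM (−1.09 ± 0.11, adjusted p = 1.7e-11). Neither gene's groups overlapped. Among the genes of repair choice, Rif1, which protects ends from resection, rose from 95.7, 99 and 106 CPM to 146, 148 and 148 CPM (0.56 ± 0.03, adjusted p = 2.6e-19). Trp53bp1, which recruits RIF1, fell by 0.29, and Polq, the polymerase of microhomology-mediated joining, fell by 0.57.

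With olaparib in cells alone, 32 members were lower in F133V cells and 6 higher (background 33.2% and 34.3% of all genes), with a median of −0.41. Rad54l was again the most reduced, at 12.1, 12.1 and 12.2 CPM in vector libraries and 2.48, 2.63 and 3.04 CPM in F133V libraries (−2.16 ± 0.1, adjusted p = 8.9e-22). Exo1 fell by 1.65, Brip1 by 1.55, Brca1 by 1.46 and Dna2 by 1.41. In coculture with DMSO, 29 were lower and 10 higher (42% and 37.4% of all genes) and the median was −0.85, against −0.06 over all genes. In coculture with olaparib, 28 were lower and 6 higher (31.2% and 28.8%), with a median of −0.32. These 4 comparisons of F133V with vector used different libraries, but each set the same kinds of transduced cells against each other. An effect of the mutant cannot be told apart there from another difference between those cells. In all 4 comparisons 21 members (48.8%) were called lower, against 16.1% of all genes, among them Brca1, Brca2, Bard1, Brip1, Rad50, Blm, Wrn, Fanca and Polq. Of these 21, Palb2 and Rad51b missed the threshold in at least 1 comparison under an alternative setting. Called higher in all 4 were Rad54b, Rbbp8, Rif1 and Slx4 (9.3%, against 14.3% of all genes). Of the 4, only Rif1 was called in all 4 under every alternative fit (the 1.5-fold minimum aside). In coculture, Slx4 had 0.04 (adjusted p = 0.3) under total-count scaling in DMSO, Rbbp8 had 0.08 (adjusted p = 0.15) with olaparib without replicate 3 of the F133V cells, and Rad54b had 0.67 (adjusted p = 0.099) with olaparib without replicate 1 of the vector cells.

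The next question was whether these changes exceeded those of cell division. The test was repeated with every library scaled so that the mean of the 78 division genes was equal, so that a call means a change larger or smaller than that mean. In cells alone in DMSO the division genes had a median log2 fold change of −0.7. On this scale 7 members were still lower: Brca1, Bard1, Brip1, Rad51b, Rad54l, Blm and Fanci; the share of all genes that were lower was 9.99%. Higher on this scale were 26 members (60.5%), against 72.1% of all genes. Relative to division, Rad54l was at −1.03 (adjusted p = 6.2e-11) and Brca1 at −0.26 (adjusted p = 0.00022), whereas Brca2, at −0.03 (adjusted p = 0.64), was not called apart from the division genes. Measured against the mitosis genes alone, Brca1 gave −0.04 and Fanci −0.16, and neither was called. Rad51b gave −0.88 without the 2 vector libraries that held more macrophage transcripts. That fit left a single library in the vector group, and the call was not kept in it.

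With olaparib in cells alone, 7 members were lower relative to division (6.1% of all genes) and 30 higher (80.8%), and in coculture with olaparib 10 were lower (8.21%) and 23 higher (69.5%). Cocultured cells in DMSO had the most members lower, 16 (17.8% of all genes), and had 17 higher (64.9%). Those 16 were Brca2, Bard1, Brip1, Rad51b, Rad51c, Rad51d, Xrcc3, Rad54l, Rad51ap1, Blm, Wrn, Eme1, Mus81, Fanca, Fance and Fanci, and all of them had fallen further than the division genes, whose median was −0.84. With the mitosis genes alone as the reference, 7 of the 16 were not called: Blm (−0.04), Eme1 (−0.02), Fance (−0.1), Mus81 (−0.12), Rad51ap1 (−0.17), Rad51d (−0.13) and Xrcc3 (−0.13). Eme1 also had −0.11 (adjusted p = 0.48) without replicate 2 of the F133V cells, and Xrcc3 −0.31 (adjusted p = 0.1) without replicate 1. Brip1, Fanci and Rad54l were called lower relative to division in all 4 comparisons of F133V with vector (6.98% of members, 3.04% of all genes). In coculture with olaparib Fanci, at −0.22, gave −0.13 (adjusted p = 0.26) without replicate 1 of the F133V cells. Called higher relative to division in all 4 were 14 members (32.6%), against 51% of all genes, among them Atm, Fancd2, Nbn, Rbbp8, Rif1 and Trp53bp1. Chek1 was among the 14, but in coculture with olaparib its 0.2 became 0.05 (adjusted p = 0.61) relative to the mitosis genes and 0.13 (adjusted p = 0.19) without replicate 1 of the vector cells.

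**Figure D2:**
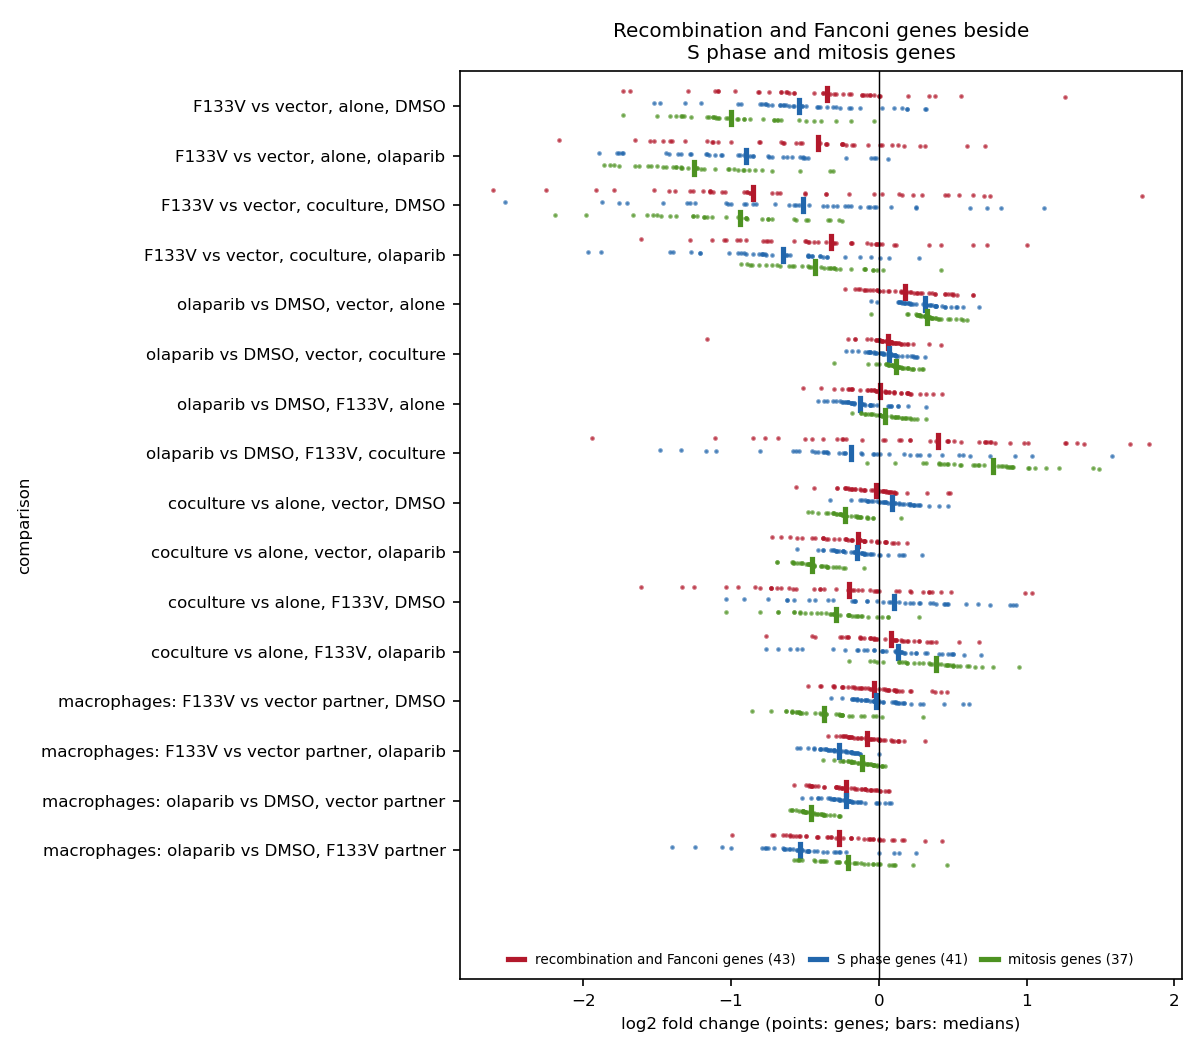
Log2 fold changes of the 43 members beside 41 S phase and 37 mitosis genes in the 16 comparisons; points are genes and bars are medians. For F133V against vector in coculture with DMSO the members' median of −0.85 lies between the S phase median of −0.51 and the mitosis median of −0.94.

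Cocultured F133V cells in DMSO stood apart from the other cancer groups. Of the 43 members, 25 (58.1%) had their lowest group mean there, against 33.7% of all genes, 26.8% of S phase genes and 86.5% of mitosis genes, and 9 (20.9%) had their highest, against 32.5% of all genes. Brca2 read 21.4, 20.8 and 21.9 CPM in cocultured vector cells and 5.75, 6.74 and 5.98 CPM in cocultured F133V cells (−1.79 ± 0.07, adjusted p = 4e-23; relative to division −1.03, adjusted p = 1.2e-14). Wrn, a helicase and exonuclease of the same family as Blm, read 23.3, 22.5 and 23 CPM against 8.44, 8.41 and 8.83 CPM (−1.42 ± 0.06, adjusted p = 8.7e-24). Mus81, the catalytic subunit of a nuclease that cuts joint molecules, read 13.7, 14.1 and 14.2 CPM against 6.74, 6.65 and 5.48 CPM (−1.14 ± 0.07, adjusted p = 6.3e-17). For these 3 genes the F133V libraries were all below the vector libraries. In cells alone in DMSO, Mus81 had been 15.9, 16.9 and 16.1 CPM in vector and 16.7, 15.6 and 15.6 CPM in F133V libraries, which overlapped.

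Falls in this group reached each of the recombinase paralogs and motors except Rad54b: 7 of the 8 strand exchange genes were lower, with Rad54l at −2.61 ± 0.12 (adjusted p = 1.1e-21) and Rad51c at −1.38 ± 0.15 (adjusted p = 1.4e-10). In the MRE11 complex, Rad50 read 73.6, 71.8 and 74.3 CPM in vector and 40.7, 41.6 and 39.9 CPM in F133V libraries, and relative to division its −0.08 was not called. Among the 10 that rose, Chek1 read 8.64, 9.38 and 8.26 CPM against 16.2, 13.4 and 14.9 CPM (0.75 ± 0.08, adjusted p = 2.8e-11), opposite to the division genes and to Chek2, the ATM-activated checkpoint kinase, which fell by 0.91. Rbbp8 (0.64), Rif1 (0.71), Fancm (0.54), a translocase that anchors the Fanconi core complex, Rad52 (0.47) and Fancd2 (0.45) also rose. Trp53bp1 had a log2 fold change of 0.23, but −0.03 (adjusted p = 0.47) when libraries were scaled by total count alone, under which the median of all genes shifted by −0.311 and 32 members were lower and 7 higher. Chek1 remained higher under that scaling, at 0.5.

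**Figure D3:**
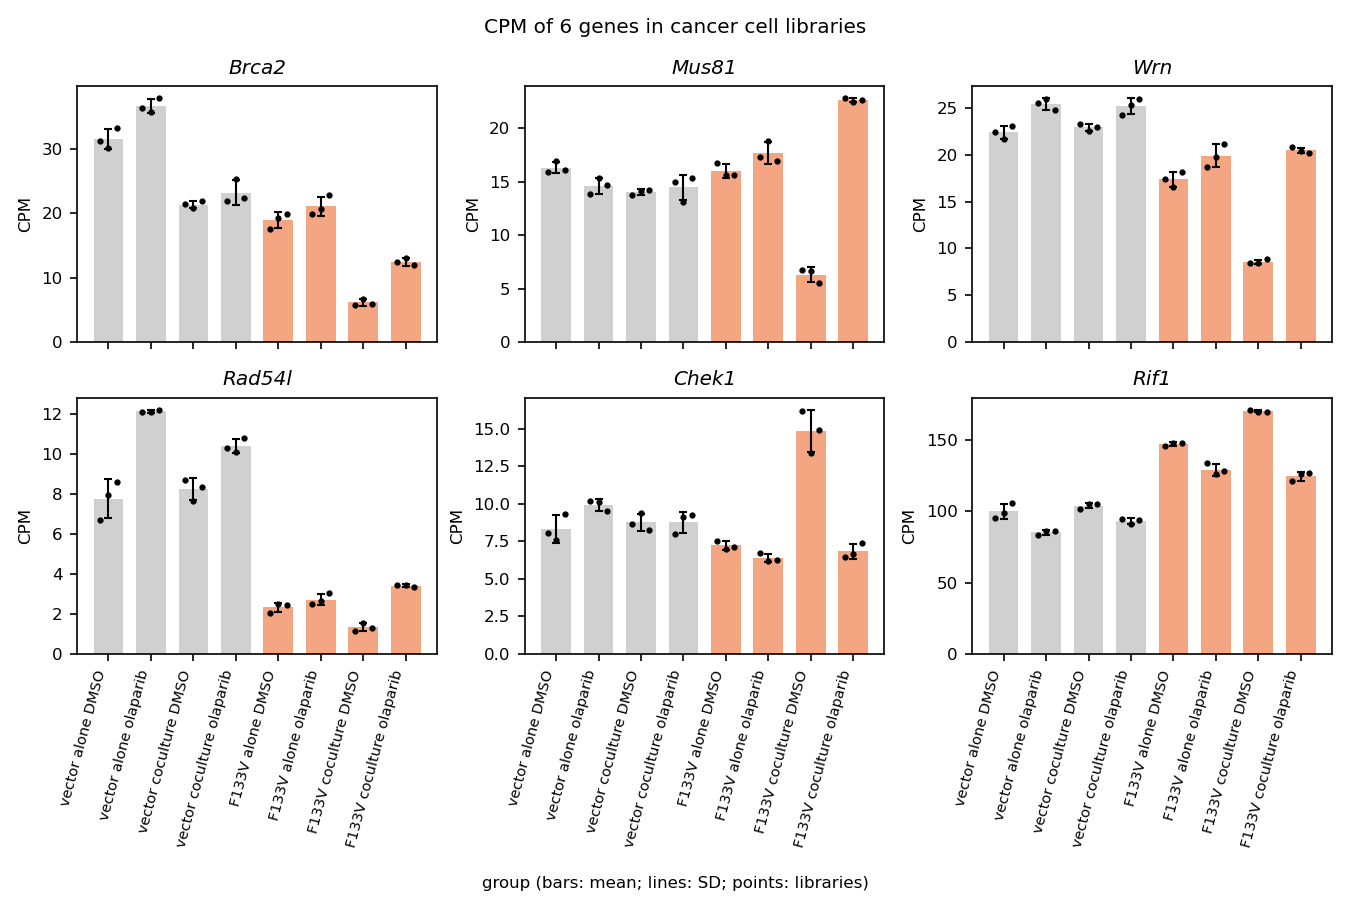
CPM of Brca2, Mus81, Wrn, Rad54l, Chek1 and Rif1 in the 8 groups of cancer cells (grey for vector, orange for F133V); bars are means of 3 libraries, lines are SD and points are libraries. Mus81 lies between 5.48 and 6.74 CPM in cocultured F133V cells in DMSO and between 22.4 and 22.8 CPM in the same cells with olaparib, its highest level in cancer cells.

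Olaparib was compared with DMSO within each kind of culture. In vector cells alone, 23 members rose and 3 fell, against 15.3% and 15.1% of all genes, with a median of 0.18. The division genes rose as well, 37 of 41 S phase genes and 36 of 37 mitosis genes, with medians of 0.31 and 0.33. Brca1 went from 18.2, 17.1 and 17.7 CPM to 23.9, 24.7 and 24.7 CPM (0.47 ± 0.05, adjusted p = 1.4e-09) and Rad54l from 6.72, 7.97 and 8.63 CPM to 12.1, 12.1 and 12.2 CPM (0.64 ± 0.08, adjusted p = 1.8e-08). Both groups of libraries were separate for each gene. Blm rose by 0.49, Exo1 by 0.53 and Fancd2 by 0.38, whereas Rif1 (−0.23), Mus81 (−0.16) and Trp53bp1 (−0.1) fell. Relative to division, 4 members were called higher (Brca1 at 0.15, Rad54l at 0.33, Blm at 0.17 and Exo1 at 0.21; 2.23% of all genes) and 21 lower (62% of all genes). Each of these 4 calls was lost in some setting. With 1 DMSO library left out, Brca1 gave 0.13 (adjusted p = 0.063, without replicate 2) and Blm 0.14 (adjusted p = 0.1, without replicate 3). Exo1 gave 0.17 (adjusted p = 0.073) without replicate 3. Rad54l gave 0.18 in place of 0.33 without replicates 1 and 2, which left a single DMSO library.

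Without the 2 vector libraries that held more macrophage transcripts, a single DMSO library was left in this comparison, and fewer members were called. How far this came from the smaller group was not tested. In that fit Rad54l had 0.49 and Brca1 0.47 against DMSO, and 0.18 and 0.15 relative to division. Brca2 had 0.14, Mus81 −0.15 and Trp53bp1 −0.07, and their calls were not kept. In vector cells in coculture, 7 members rose and 4 fell with olaparib (12.6% and 10.9% of all genes), and the median was 0.06. The nuclease Dna2 rose by 0.42, Rad54l by 0.34 and Brca1 by 0.19, and Rif1 and Rbbp8 each fell by 0.16. Relative to division 2 members were higher (6.31% of all genes) and 8 lower (27.4%). Without replicate 2 of the cocultured vector cells in DMSO, 5 members in place of 11 were called.

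In F133V cells alone, 7 members rose and 7 fell with olaparib, against 18.2% and 17.9% of all genes, with a median of 0.01. Bard1 rose by 0.32, Chek2 by 0.22 and Wrn by 0.19, and Dna2 (−0.39), Exo1 (−0.3), Rif1 (−0.19) and Rbbp8 (−0.18) fell. Without replicate 2 of the DMSO libraries Exo1 had −0.13 (adjusted p = 0.36), Dna2 −0.27 (adjusted p = 0.12) and Chek2 0.19 (adjusted p = 0.059), and under total-count scaling Exo1 had −0.23 (adjusted p = 0.072) and Rbbp8 −0.11 (adjusted p = 0.054). Brca1 read 8.11, 9.04 and 9.96 CPM in DMSO and 8.84, 8.55 and 9.18 CPM in olaparib, which overlapped. Relative to division 9 members were higher (22.3% of all genes) and 6 lower (13.7%). Under total-count scaling the split was 11 higher and 2 lower, and without replicate 2 of F133V cells alone in DMSO 7 members in place of 14 were called.

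In cocultured F133V cells 25 members rose and 10 fell with olaparib, where 39.3% and 37% of all genes did, and the median was 0.40 against 0.02 over all genes. The DMSO libraries here are those compared with cocultured vector cells above, so these values are not independent of that comparison. Mus81 went from 6.74, 6.65 and 5.48 CPM to 22.8, 22.4 and 22.6 CPM (1.83 ± 0.07, adjusted p = 1.9e-24). Wrn went from 8.44, 8.41 and 8.83 CPM to 20.8, 20.4 and 20.2 CPM (1.26 ± 0.06, adjusted p = 8.4e-22), and Brca2 from 5.75, 6.74 and 5.98 CPM to 12.4, 13.1 and 11.9 CPM (1.01 ± 0.08, adjusted p = 3e-14). All 3 genes were higher in each olaparib library than in each DMSO library. Rad51c rose by 1.39, Rad54l by 1.34, Fanci by 1.27, Bard1 by 0.98, Chek2 by 0.89 and Rad50 by 0.75. Of the resolution genes 5 of 6 rose, and of the BRCA and mediator genes 5 of 6.

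The 10 members that fell with olaparib in this culture were Rad52, Rad54b, Rbbp8, Nbn, Dna2, Chek1, Fancc, Fancm, Trp53bp1 and Rif1. Chek1 went from 16.2, 13.4 and 14.9 CPM to 6.47, 6.63 and 7.41 CPM (−1.11 ± 0.08, adjusted p = 1.3e-15), Rbbp8 from 44.6, 49.6 and 48.9 CPM to 28.6, 28.7 and 31.7 CPM (−0.68 ± 0.04, adjusted p = 1.5e-17) and Fancm from 16.3, 15.7 and 14.9 CPM to 9.76, 8.74 and 9.13 CPM. Every olaparib library was below every DMSO library for these 3 genes. Trp53bp1 had −0.01 (adjusted p = 0.79) under total-count scaling. The division genes did not move as one here: mitosis genes rose (36 of 37; median 0.77) while 23 of 41 S phase genes fell and 13 rose (median −0.19). Relative to their joint mean 19 members were higher, against 27.6% of all genes, and 16 lower, against 49.5%. The sign of Brca1 depended on the reference, being 0.22 relative to all division genes and −0.22 relative to the mitosis genes. Under total-count scaling, 30 members were higher and 8 lower, with the median of all genes shifted by 0.231.

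**Figure D4:**
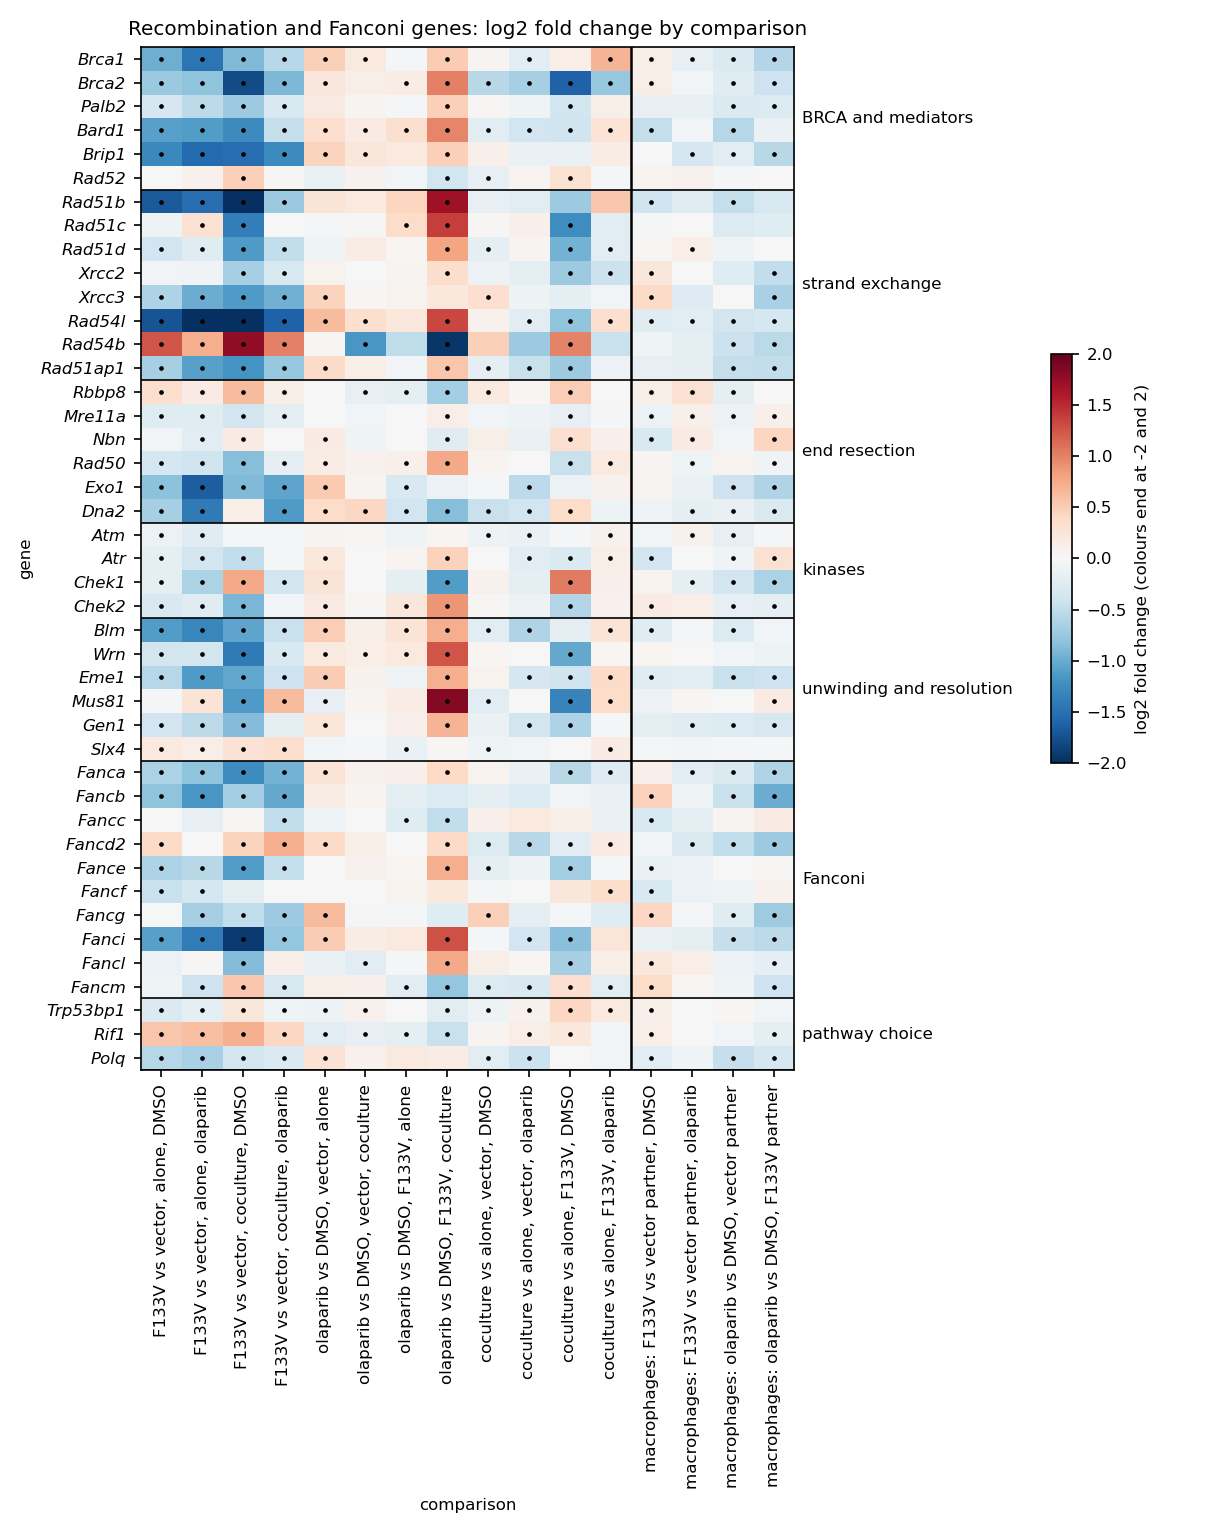
Log2 fold change of each of the 43 members (rows, ordered by role) in the 16 comparisons (columns; the last 4 in macrophages), in blue where lower and red where higher, with colours ending at −2 and 2; a dot marks a call. In the column of olaparib in cocultured F133V cells Mus81 is at 1.83 and Chek1 at −1.11, and the column of F133V against vector in coculture with DMSO has the opposite colours for both. The libraries of cocultured F133V cells in DMSO enter both columns, so a deviation of that group alone would give opposite colours.

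The effect of coculture was measured in cancer cells against the same cells alone. Each of these comparisons shares groups of libraries with comparisons above, so the values are given side by side. In vector cells in DMSO 15 members fell and 3 rose (18.6% and 23.4% of all genes), with a median of −0.02. In vector cells with olaparib 16 fell and 2 rose (18.5% and 25.5%), with a median of −0.14. In F133V cells in DMSO 21 fell and 9 rose (34.8% and 35.6%), with a median of −0.20, and with olaparib 5 fell and 13 rose (26.5% and 26.7%), with a median of 0.08.

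How many of all genes were called lower in coculture in all 4 of these comparisons was not computed. Of the 43 members, Brca2 alone was called lower in all 4. In vector cells it went from 31.3, 30.1 and 33.2 CPM alone to 21.4, 20.8 and 21.9 CPM in coculture in DMSO (−0.56 ± 0.05, adjusted p = 5.4e-11), and from 36.3, 35.8 and 37.9 CPM to 21.9, 25.4 and 22.4 CPM with olaparib (−0.66 ± 0.05, adjusted p = 3.9e-13). In F133V cells it went from 17.5, 19.3 and 19.9 CPM to 5.75, 6.74 and 5.98 CPM in DMSO (−1.61 ± 0.08, adjusted p = 6.8e-21), and from 19.9, 20.6 and 22.8 CPM to 12.4, 13.1 and 11.9 CPM with olaparib (−0.76 ± 0.06, adjusted p = 4.8e-13). No coculture library reached the level of any matching library of cells alone. Relative to division the values were −0.51, −0.37, −1.5 and −0.97, and each was called.

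Palb2, its direct partner, was called lower in F133V cells in DMSO (−0.37) and was not called in the other 3 comparisons. Brca1 in vector cells in DMSO read 18.2, 17.1 and 17.7 CPM alone and 19, 17.9 and 18.6 CPM in coculture, which overlapped; with olaparib it was lower in coculture in vector cells (−0.22) and higher in F133V cells (0.68 ± 0.06, adjusted p = 5.7e-12), where it went from 8.84, 8.55 and 9.18 CPM to 13.4, 15 and 14.1 CPM. Fancd2 fell with coculture in vector cells, by 0.28 in DMSO and by 0.55 with olaparib. In F133V cells in DMSO the largest changes after Brca2 were in Mus81 (−1.33), Rad51c (−1.25), Chek1 (1.04) and Wrn (−1.03). Rif1 had 0.21 there, but 0 (adjusted p = 0.93) under total-count scaling, with which 28 members were lower and 4 higher in this comparison, against 21 and 9; the median of all genes then shifted by −0.201.

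In DMSO the S phase and mitosis genes did not move together with coculture. In vector cells 31.7% of S phase genes were higher and 7.32% lower, against 2.7% and 75.7% of mitosis genes. In F133V cells the shares were 46.3% and 31.7%, against 2.7% and 73%. The joint reference in DMSO is thus an average of unlike changes. Against division, 7 members fell further than the reference in vector cells in DMSO (13.5% of all genes lower on that scale) and 6 were higher (30.5%). The counts were 4 lower (4.56%) and 19 higher (58.5%) in vector cells with olaparib, 17 lower (29.1%) and 14 higher (41.4%) in F133V cells in DMSO, and 21 lower (49.2%) and 2 higher (12.9%) in F133V cells with olaparib. For coculture in vector cells in DMSO, 10 members in place of 18 were called without replicate 2 of the cocultured cells. Fewer were called also without replicates 1 and 2 of vector cells alone in DMSO, which left a single library in that group.

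Differences between effects were tested as interactions, some of which share groups of libraries. The effect of olaparib differed between F133V and vector cells alone for 14 members. Of these, 13 had a lower effect in F133V cells (10.9% of all genes) and 1 a higher one (13.3%). S phase genes gave 36 of 41 and mitosis genes 25 of 37 on the lower side. Fewer members were called without the 2 vector libraries noted above, which left a single library of vector cells alone in DMSO. In coculture the effect of olaparib was higher in F133V cells for 24 members (35.4% of all genes) and lower for 8 (32%). The effect of coculture in DMSO was lower in F133V cells for 18 members (32.5%) and higher for 8 (30.2%), with a median of −0.23. For Brca2 that difference was −1.05 (adjusted p = 2.8e-12), for Wrn −1.06 (adjusted p = 3.3e-15) and for Mus81 −1.11 (adjusted p = 8.1e-13).

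In macrophages, cocultured with the cancer cells, olaparib was followed by lower levels of many members. With a vector partner 26 members fell and 0 rose by edgeR (14.5% and 14% of all genes), with a median of −0.22; at an unadjusted p under 0.05 1 member was higher and 28 lower, and DESeq2 called 0 higher and 22 lower. With an F133V partner 25 fell and 4 rose (29% and 28.5%), with a median of −0.27. Fancd2 read 15.1, 13.8 and 15.9 CPM in DMSO and 10.1, 10.3 and 11.5 CPM in olaparib with a vector partner (−0.49 ± 0.07, adjusted p = 1.4e-07), and 13.6, 15.2 and 14.1 CPM against 7.82, 9.39 and 8.89 CPM with an F133V partner (−0.72 ± 0.07, adjusted p = 2.1e-12). Both pairs of groups were separate. Brca1 fell by 0.29 and by 0.58, Chek1 by 0.37 and by 0.63, and Brca2 by 0.25 and by 0.42 in the same order of partners.

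Of the division genes of the macrophages, 30 of 41 S phase genes and 37 of 37 mitosis genes fell with a vector partner (medians −0.22 and −0.46), and 37 and 23 with an F133V partner (medians −0.53 and −0.21). Relative to them, 2 members were lower (1.54% of all genes) and 21 higher (72.1%) with a vector partner, and 9 lower (5.01%) and 20 higher (69.5%) with an F133V partner. The effect on Atr, the kinase of stalled forks, differed by partner (difference 0.4, adjusted p = 1.9e-13): it went from 104, 107 and 112 CPM to 99.6, 100 and 103 CPM with a vector partner (−0.09; −0.06 and adjusted p = 0.092 without replicate 3 of the DMSO libraries) and from 81.6, 82 and 82 CPM to 101, 101 and 103 CPM with an F133V partner (0.31 ± 0.03, adjusted p = 7.4e-15). Nbn, the MRE11 complex subunit that recruits ATM, read 23.4, 24.1 and 23.9 CPM in DMSO and 32.3, 32 and 32 CPM in olaparib with an F133V partner (0.43 ± 0.04, adjusted p = 8.3e-13).

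Macrophages were also compared by the genotype of their partner. In DMSO 12 members were higher and 12 lower with an F133V partner, with a median of −0.03. Their shares, 27.9% each, were near the 25.5% and 28.1% of all genes. Atr fell by 0.39 (adjusted p = 1.2e-18), Nbn by 0.31 and Bard1 by 0.48, and the Fanconi genes split, with Fancb (0.46), Fancg (0.42), Fancm (0.36) and Fancl (0.21) higher and Fancc (−0.3), Fancf (−0.3) and Fance (−0.14) lower. With olaparib 5 were higher and 9 lower (17.6% each), with Rbbp8 at 0.31 and Brip1 at −0.34; under total-count scaling the split was 8 and 5, and without replicate 2 of the macrophages with a vector partner in olaparib 9 members in place of 14 were called. Relative to division 22 were higher (47.6%) and 3 lower (13.7%) in DMSO, and 18 higher (60.2%) in olaparib. In DMSO 29.3% of S phase genes were higher and 29.3% lower, while 89.2% of mitosis genes were lower. Relative to mitosis genes alone, Atr gave −0.03 in place of −0.24 and Bard1 −0.12 in place of −0.32. Relative to S phase genes alone, Brca1 gave 0.09 in place of 0.28 and Brca2 0.08 in place of 0.27. None of these recomputed values was called.

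Between cell types, macrophages cocultured with vector cells in DMSO were higher than those vector cells for 29 members and lower for 4, against 39.8% and 42.4% of all genes, with a median of 0.40 against −0.05. This difference also holds any difference between 2 lines of different origin, and its mean CPM come from a scaling of both cell types together, so they differ slightly from the values above. Rad54b was 8.22 CPM in macrophages and 0.572 CPM in cancer cells (3.84 ± 0.16), and Dna2, whose libraries in those cancer cells read 3.77, 3.9 and 4.33 CPM, was 10.6-fold higher in macrophages. All 4 kinases were higher in macrophages, with Atm at 174 CPM against 73.4 CPM and Atr at 111 CPM against 47.4 CPM. The 4 lower members were the recombinase paralog Xrcc2 (−0.56), the Fanconi ubiquitin ligase Fancl (−0.38), Rbbp8 (−0.19) and Rif1 (−0.16). After removal of a length and GC trend the sign of Rbbp8 (0.21) and of Rif1 (0.14) reversed.

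Partners of the members were taken from a list of 47 further recombination and Fanconi genes, and the competing route from 10 end-joining genes. In F133V against vector cells alone in DMSO, 21 of the 47 were lower and 11 higher (44.7% and 23.4%), and 4 of the 10 were lower and 3 higher (40% and 30%), against 34% and 33.7% of all genes. In coculture in DMSO the counts were 32 lower and 11 higher (68.1% and 23.4%), and 7 lower and 3 higher (70% and 30%), against 42% and 37.4% of all genes, with medians of −0.54 and −0.65. Xrcc5, the larger subunit of the Ku end-binding ring, was 34.6 CPM in cocultured F133V cells and 98.4 CPM in cocultured vector cells (−1.5 ± 0.04, adjusted p = 1.9e-31), and Prkdc, the kinase that Ku recruits, was 18.6 CPM and 44.3 CPM. With olaparib in cocultured F133V cells Xrcc5 reached 113 CPM and Prkdc 42.7 CPM, and 6 of 10 end-joining genes rose and 3 fell, as 25 of 47 further genes rose and 12 fell, against 39.3% and 37% of all genes. Faap100, a subunit of the Fanconi core complex, went the other way, at 52.7 CPM in cocultured F133V cells in DMSO, 20.5 CPM in cocultured vector cells and 18.2 CPM in cocultured F133V cells with olaparib.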

How the data were processed

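The series holds 36 RNA libraries in 12 groups of 3, of which 24 are from RM-1-BM and 12 from RAW264.7 cells. Total RNA was extracted with TRIzol and sequenced from standard Illumina libraries, per the labels' protocols. The submitters' processing notes name STAR, TopHat, HTSeq, DESeq2 and GRCm38. Not given in the sources used here: aligner versions and whether counting used strand. The deposited values are raw read counts per gene, 46078 genes and 5 HTSeq summary lines per file. The summary lines were left out of library sizes and tests; 17.15 to 21.51% of reads had no feature and 1.2 to 1.36% were ambiguous. Sample groups follow the labels' group entry, which also gives the partner of 3 macrophage libraries (vector partner, olaparib) whose titles lack it; the labels' genotype entry for macrophages, which names the mutant for 1 group with an F133V partner and wild type for the other, was not used. No 2 libraries of a group held identical counts. Nothing in the labels says that the 3 libraries came from separate cultures, so p-values cover no more than the spread among these libraries, which may be technical.

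Counts were tested with edgeR 4.0.16 (R 4.3.3; TMM scaling, filterByExpr with minimum count 10, quasi-likelihood F test, Benjamini-Hochberg adjustment over all genes, threshold 0.05). The cancer libraries were fitted together (15962 genes, 16 residual degrees of freedom), the macrophage libraries together (14262 genes, 8 degrees of freedom), and both for the comparison of cell types (17295 genes). A standard error is the log2 fold change divided by the square root of F. For values relative to cell division, the library offset held the mean log2 CPM of 78 S phase and mitosis genes equal (prior count 2); the error of that mean is not included. There were 16 comparisons of 2 groups, 4 interactions and the comparison of cell types. RPKM used exon lengths of GENCODE M21 (GRCm38). Alternatives were DESeq2 1.42.0, other scalings, no filter, fewer groups, a length and GC trend, a replicate block, a fold minimum of 1.5, other division references and libraries left out. The scripts were tested on simulated data. Figures were drawn with matplotlib 3.10.9.

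The members and lists were chosen with earlier results of these data known. Any member could be named. Values per library were given for Brca1, Brca2, Fancd2, Atm, Chek1, Rad54l, Polq and Trp53bp1 where called and where a result turned on them, and otherwise from up to 6 called members per comparison with the largest change at 1 CPM or more, up to 4 opposite to the division genes, up to 4 with the smallest adjusted p relative to division and up to 5 per interaction; up to 3 called genes per comparison came from the other pathway lists. Rad9a matched 2 rows and was left out. Some marker genes are not reported here.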

Additional observations from a re-analysis of the deposited data

Results flagged for a closer look

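For 20 results the effect of one factor differed between groups by a test of the interaction in edgeR (adjusted over all genes); values are differences of log2 fold changes, and no cause was tested. With 3 libraries per group, single libraries were not checked as extremes.

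The effect of olaparib in cells alone was lower in F133V than in vector cells for the nuclease Exo1 (−0.83, adjusted p = 2.1e-06), Dna2 (−0.75, adjusted p = 0.00023), Brca1 (−0.5, adjusted p = 2.4e-05) and Fancd2 (−0.37, adjusted p = 0.00054). It was higher for Mus81 (0.31, adjusted p = 0.0062). Without the 2 vector libraries with more macrophage transcripts, Mus81 had 0.29. That fit left a single library of vector cells alone in DMSO, and the call was not kept in it.

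In coculture the effect of olaparib was higher in F133V cells for Mus81 (1.78, adjusted p = 2.5e-19), Wrn (1.12, adjusted p = 2e-16), Chek2 (0.86, adjusted p = 2.7e-10) and Rad50 (0.66, adjusted p = 1.4e-13), and lower for Chek1 (−1.11, adjusted p = 5.1e-11).

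The effect of coculture in DMSO was lower in F133V cells for Mus81 (−1.11, adjusted p = 8.1e-13), Wrn (−1.06, adjusted p = 3.3e-15), Brca2 (−1.05, adjusted p = 2.8e-12) and Rad50 (−0.49, adjusted p = 6.2e-10), and higher for Trp53bp1 (0.52, adjusted p = 2.2e-12). This interaction and that of olaparib in coculture share the cocultured DMSO libraries of vector and F133V cells, so they are not independent results.

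In macrophages the effect of olaparib was higher with an F133V partner for Nbn (0.48, adjusted p = 1.4e-09), Atr (0.4, adjusted p = 1.9e-13), Mre11a (0.21, adjusted p = 0.0001) and Atm (0.13, adjusted p = 0.00074), and lower for Brca1 (−0.29, adjusted p = 0.0002).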

How the results depend on the processing

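Of 256 recomputed counts of called members, other than those that left out 1 library, 227 stayed within 1.5 times the value reported, as did 237 of 246 with 1 library left out. The shares of all genes under the alternative settings, here and above, are not given. Counts under those settings therefore show how the calls of members moved, not how members differed from all genes. With at least a 1.5-fold change required, F133V against vector gave 16 members alone in DMSO, 20 alone in olaparib and 15 in coculture with olaparib. Olaparib gave 2, 1, 0 and 21 in vector cells alone, vector cells in coculture, F133V cells alone and F133V cells in coculture, and coculture gave 0 and 2 in vector cells (DMSO, olaparib) and 14 and 2 in F133V cells. In macrophages this gave 0 and 0 for the partner and 0 and 7 for olaparib (vector, F133V partner); the interactions gave 3, 19, 14 and 1, and the cell types 21. This rule keeps a subset of the called members, so its counts cannot exceed those reported above.

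For changes under the other settings the cause was not tested. A setting chosen after seeing the data left out the 2 vector libraries with more macrophage transcripts. It left a single library of vector cells alone in DMSO, so its counts are not given. Fewer members were called in it for olaparib in vector cells alone and for the interaction of genotype and olaparib alone. The same held for coculture in vector cells in DMSO, also relative to division. With no filter, olaparib in cocultured vector cells gave 6 members, and with S phase genes as the reference also 6. Fitted on its own groups, olaparib in F133V cells alone gave 8, and 8 relative to division. Coculture in vector cells in DMSO gave 24 relative to mitosis genes.

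With 1 library left out, F133V against vector gave 33 to 34, 36 to 39, 38 to 39 and 30 to 33 called members (alone DMSO, alone olaparib, coculture DMSO, coculture olaparib). Olaparib gave 22 to 24, 5 to 9, 7 to 14 and 35 to 36 in the order above, and coculture gave 10 to 15, 17 to 19, 28 to 32 and 15 to 21. Macrophages gave 18 to 23 and 9 to 15 for the partner and 22 to 26 and 27 to 30 for olaparib; interactions gave 10 to 16, 31 to 33, 24 to 27 and 16 to 21, and cell types 32 to 33. Relative to division, in the same orders, the ranges were 32 to 34, 36 to 38, 31 to 34 and 29 to 34 for F133V, 21 to 25, 5 to 9 (5 without replicate 2 of cocultured vector cells in DMSO), 10 to 13 and 34 to 35 for olaparib, 9 to 12, 21 to 23, 30 to 31 and 18 to 21 for coculture, and 23 to 27, 18 to 19, 19 to 22 and 25 to 28 in macrophages.

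Single members were followed for 393 values chosen by the rule given above for values per library, not for every call. Reversals outside that choice, such as those of Rbbp8 and Rif1 between cell types, are not counted here. Of 4987 recomputed values for the chosen results, each left-out library counted on its own, 4714 kept direction and call, 268 lost the call and 5 reversed. The 5 were Atm (coculture, F133V cells with olaparib, relative to S phase genes, 0.01 in place of −0.12), Brca1 (olaparib, cocultured F133V cells, relative to mitosis genes, −0.22 in place of 0.22), Mus81 (coculture, F133V cells with olaparib, relative to mitosis genes, −0.01 in place of 0.15), Rif1 (coculture, vector cells in DMSO, relative to S phase genes, −0.04 in place of 0.11) and Trp53bp1 (F133V in coculture with DMSO, total-count scaling, −0.03 in place of 0.23). Total-count scaling gave 9 higher and 8 lower members for coculture in F133V cells with olaparib, 15 and 9 for the partner in DMSO, 4 and 8 for genotype and olaparib alone, and 25 and 9 between cell types. Same-numbered cancer libraries deviated from their group means with correlations of −0.047 to 0.058, and 8 of 24 correlated best with their own number. In macrophages the correlations were −0.017 to 0.036, and 7 of 12 libraries correlated best with their own number. These values do not show how the libraries were made, and the main tests used no pairing. With a replicate block, F133V against vector gave 34 members alone and 39 in coculture in DMSO, and no count moved by over 1.5 times. Rad51b and Rad54b, at or below 2.16 CPM in the cancer libraries, had few counts.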
